A study of Mus musculus with 13 samples.

Results

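The 10 genes described here encode the enzymes of the hepatic methionine cycle and of transsulfuration that are linked to Gnmt, namely Mat1a, Mat2a, Mat2b, Gnmt, Pemt, Ahcy, Bhmt, Bhmt2, Cbs and Cth. They were chosen by name, and each was found in the deposited count tables by its Entrez gene number, as 10 of the 23785 genes listed in at least 1 table. Liver RNA of 13 C57 mice aged 3 months was sequenced, and the study's methods describe the animals as male with an intact Gnmt gene. The no BDL group (n = 5) was labelled as not treated, and the other mice underwent bile duct ligation (BDL), which blocks the outflow of bile. The miR-Ctrl BDL group (n = 4) received a control oligonucleotide and the anti-miR-873-5p BDL group (n = 4) an oligonucleotide against the microRNA miR-873-5p, in both groups by repeated tail vein injection. The no BDL mice had neither ligation nor injection according to the labels, so the contributions of ligation and injection cannot be told apart against that group.

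In the methionine cycle the methionine adenosyltransferases convert methionine to S-adenosylmethionine (SAMe), the methyl donor of the cell. Methyltransferases use SAMe and release S-adenosylhomocysteine (SAH), which is hydrolysed to homocysteine. Homocysteine is either methylated back to methionine or passed by transsulfuration to cysteine, a precursor of glutathione and taurine, and the liver is the main organ of this metabolism. GNMT, which methylates glycine to sarcosine, is regarded as the enzyme that keeps hepatic SAMe from accumulating.

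The microRNA against which the oligonucleotide was directed, and the positions in the 10 genes that match its seed, are shown because the third comparison concerns this oligonucleotide. The mature sequence is that of RefSeq (GRCm38.p6, chromosome 4, 36668556 to 36668576, minus strand), with the seed, bases 2 to 8, in capitals.
mmu-miR-873a-5p: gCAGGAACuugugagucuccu
The complement of the seed, GTTCCTG, was searched in the 3′ untranslated regions of the GENCODE M21 annotation on the strand of each gene. It occurred once each in Mat1a, Ahcy and Cbs, shown here with the match in capitals.
Mat1a (chr14:41124231-41124254, plus strand): cgtgcgaaggttgaGTTCCTGtaa
Ahcy (chr2:155059831-155059854, minus strand): ctgtatagttgatgGTTCCTGtca
Cbs (chr17:31609905-31609928, minus strand): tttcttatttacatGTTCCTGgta
The Cbs position lies beyond the end of the gene in RefSeq. In all, 14.1% of 21028 genes held GTTCCTG in this region. The 3′ untranslated region of Gnmt is 136 bases long and held neither GTTCCTG nor the shorter match TTCCTG. In the first 136 bases of the regions of 19268 genes, 1.64% held GTTCCTG and 9.22% held TTCCTG. A match or its absence describes the letters of the window only.

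Reads counted on genes numbered from 12185333 to 19689037 per mouse, and each of the 10 genes had at least 291 reads in every mouse. All 10 passed the filter on low counts in all 3 tables. Levels are given as normalized counts, which are CPM values (reads scaled to a common library total) with TMM factors, and each table was scaled on its own, so a mouse has another value in each table and levels are set side by side only within a table. The same mice have higher normalized counts of these genes in the table of both BDL groups. Counts of 8 of the 10 genes were identical between the tables that share a mouse. Mat1a had 98.6% to 99.3% as many reads in the table of miR-Ctrl BDL versus no BDL as in the other tables, a difference of at most 333 reads, and Cbs differed by at most 2 reads. A few genes share sequence with others. Of the 50-base windows of Ahcy transcripts, 68.7% also occur in the transcripts of Gm4737, Gm4913, Gm5638 or Gm9826, so its reads are uncertain. The share was 26.1% for Bhmt, 14.2% for Mat2a, 6.32% for Bhmt2 and at most 1.25% for the other 6 genes. The kit does not mark strand, and Mat2a overlaps the antisense gene Particl and Bhmt the antisense gene Gm15622, so reads from these partners cannot be told apart.

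Per kilobase of exon, the 10 genes fell into abundant and scarce members in untreated liver. The length joins the exons of all annotated transcripts of a gene, from 1206 bases in Gnmt to 5758 in Bhmt and 7485 in Cbs. The order depends on this length. Without division by it, the mean normalized counts in no BDL were 3521 for Bhmt, 2116 for Mat1a, 1560 for Ahcy and 1249 for Gnmt. Gnmt stood first with 1036 ± 186 normalized counts per kilobase (SD, n = 5) and rank 57 of 12815 genes, followed by Bhmt with 612, Mat1a with 610 and Ahcy with 556. The ranges of these neighbours overlapped. Pemt with 109 was separated from Ahcy, and Bhmt2 with 91.1 from Pemt, whereas Bhmt2, Cth (90.3) and Cbs (55.6) overlapped with their neighbours. Mat2a with 15.8 and Mat2b with 5.1 followed, each apart from the gene before it. In miR-Ctrl BDL the mean of Gnmt was 370 per kilobase, behind Mat1a (664) and Bhmt (500). In anti-miR-873-5p BDL the mean of Gnmt was 574, again behind Mat1a (1102) and Bhmt (589). The ranges of these neighbours overlapped in both groups, and the Mat1a means rest on 1 mouse each. In miR-Ctrl BDL Mat1a ranged from 147 to 1836, highest in mouse 3, and Gnmt from 311 to 430. With anti-miR-873-5p Mat1a ranged from 387 to 3055, highest in mouse 2, and Gnmt from 215 to 1015.

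**Figure D1:**
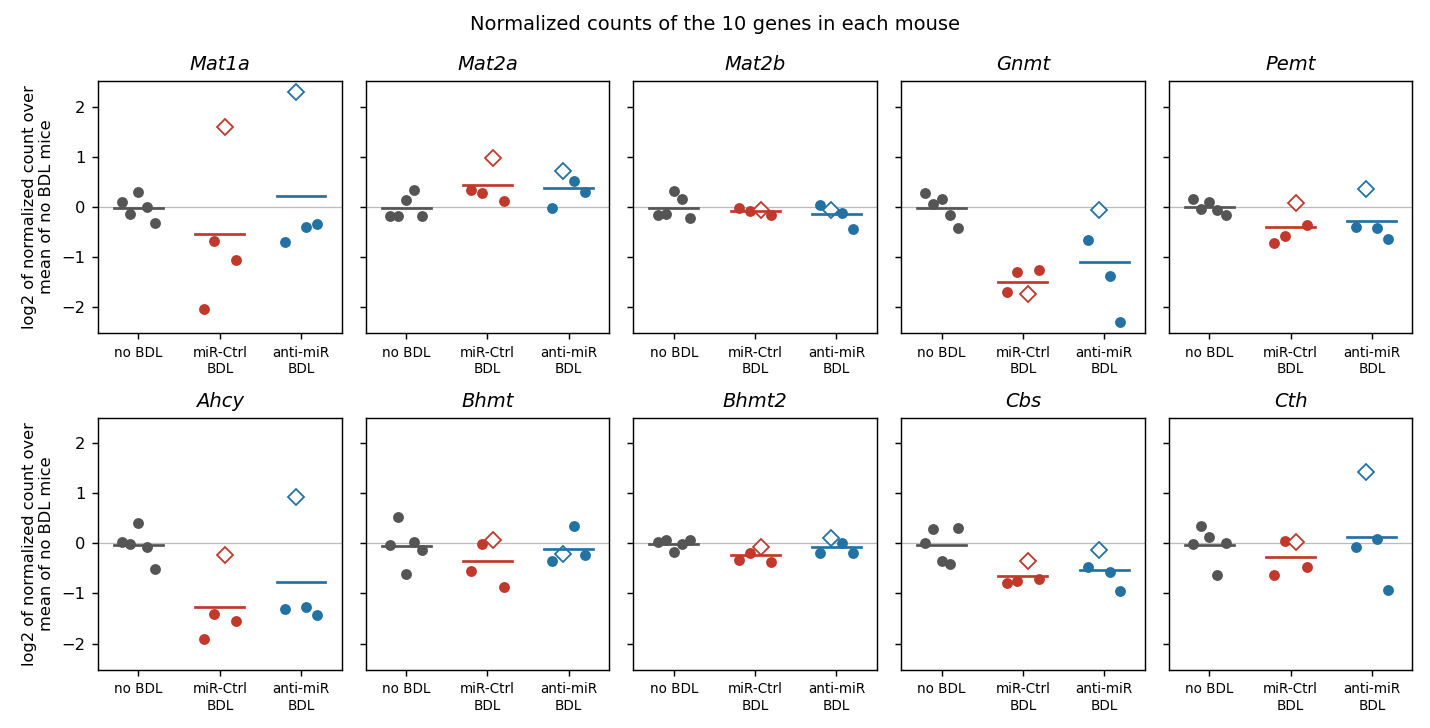
Normalized count of each of the 10 genes in each mouse, as log2 of the ratio to the mean of the 5 no BDL mice of the same table (y axis), with 1 point per mouse and a bar at the mean of the log2 values of each group. Open diamonds are miR-Ctrl BDL mouse 3 and anti-miR-873-5p BDL mouse 2, which have the highest Mat1a of their groups, and all 4 miR-Ctrl BDL points of Gnmt lie below the no BDL points.

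The first comparison asked which of these genes differ between cholestatic and untreated liver, in miR-Ctrl BDL (n = 4) against no BDL (n = 5). Gnmt, Ahcy and Cbs fell, by 2.80-fold, 2.18-fold and 1.56-fold, and none of the 10 genes rose. Across all 13072 genes tested, 16.6% were called lower and 19.1% higher at an adjusted p of 0.05, by the quasi-likelihood test of edgeR with the adjustment of Benjamini and Hochberg, which is behind every adjusted p of a gene given here. The log2 fold change was negative for 8 of the 10 genes and positive for Mat1a and Mat2a, with a median of -0.26 beside a median of -0.011 over all genes. Only for Gnmt did the mice of both groups not overlap, 1 of 10 genes beside 29.6% of all genes tested.

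Scaling by library size alone, without TMM, moved the median of all genes to a log2 fold change of 0.79 and turned the split of calls from 2491 higher and 2175 lower to 9360 higher and 275 lower. Under that scaling the log2 fold change of Gnmt was -0.68 and remained past the threshold (adjusted p = 0.0211), that of Ahcy was -0.40 (adjusted p = 0.295) and that of Cbs turned to 0.17 (adjusted p = 0.364). All 3 were below the median of all genes under that scaling, and changes are given here relative to the TMM scale.

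The enzymes of SAMe synthesis did not pass the test. Mat1a (Entrez gene 11720, chromosome 14, 41105012 to 41124428 of GRCm38) encodes the methionine adenosyltransferase of the adult hepatocyte. Its normalized counts were 2273, 1914, 2608, 2100 and 1684 without BDL, and those of miR-Ctrl BDL were 511, 1323, 6366 and 1005. Mice 1, 2 and 4 with BDL lay below every untreated mouse and mouse 3 lay above all of them. Its log2 fold change came to 0.12 (95% CI -1.25 to 1.49, adjusted p = 0.898). Mat2a (Entrez gene 232087, chromosome 6, 72432796 to 72439556) encodes the catalytic enzyme of extrahepatic and dividing cells. It had 62.1, 62.2, 78.0, 90.0 and 62.2 normalized counts without BDL and 89.9, 85.5, 140 and 77.2 with it. Its values overlapped between the groups, with a log2 fold change of 0.47 (95% CI 0.04 to 0.90, adjusted p = 0.0864). Mat2b (Entrez gene 108645, chromosome 11, 40679314 to 40695203), the regulatory subunit of the Mat2a enzyme, ranged from 21.6 to 31.7 without BDL and from 22.5 to 25.0 in miR-Ctrl BDL. The log2 difference was -0.08 (95% CI -0.36 to 0.19, adjusted p = 0.632).

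Of the methyltransferases, Gnmt (Entrez gene 14711, chromosome 17, 46725664 to 46729211) had 1503, 1305, 1385, 1118 and 937 normalized counts in no BDL and 383, 507, 376 and 519 in miR-Ctrl BDL. The highest BDL mouse was below the lowest untreated mouse. The log2 fold change of -1.49 (SE, the standard error, 0.19, adjusted p = 0.000546) passed the threshold in each of the 9 fits that left out 1 mouse, with values between -1.57 and -1.41. Pemt (Entrez gene 18618, chromosome 11, 59970614 to 60046561) encodes the enzyme that makes phosphatidylcholine from phosphatidylethanolamine with 3 methyl groups from SAMe. It had 256, 223, 245, 221 and 206 normalized counts in no BDL and 140, 153, 243 and 179 in miR-Ctrl BDL. Mouse 3 lay within the untreated range and the other mice below it, and the log2 fold change was -0.36 (SE 0.17, adjusted p = 0.117).

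Ahcy (Entrez gene 269378, chromosome 2, 155059310 to 155074497) encodes the hydrolase that removes SAH, an inhibitor of methyltransferases. It had 1593, 1543, 2082, 1484 and 1095 normalized counts in no BDL and 414, 587, 1331 and 530 in miR-Ctrl BDL. Mouse 3 again reached into the untreated range. The log2 difference was -1.12 (SE 0.35, adjusted p = 0.0291), and it passed the threshold in 2 of the 9 fits that left out 1 mouse, those without no BDL mouse 5 or miR-Ctrl BDL mouse 3, with an adjusted p of up to 0.081 in the others.

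The remethylating enzymes did not pass the test. Bhmt (Entrez gene 12116, chromosome 13, 93616891 to 93637758) transfers a methyl group from betaine to homocysteine, and Bhmt2 (Entrez gene 64918, chromosome 13, 93656097 to 93674302), which lies 18339 bases away from it, uses S-methylmethionine as donor. Bhmt ranged from 2297 to 5083 normalized counts in no BDL and from 1919 to 3716 in miR-Ctrl BDL, and the log2 fold change was -0.29 (SE 0.28, adjusted p = 0.456). Bhmt2 was the least variable of the 10 genes in untreated liver, with a range from 200.2 to 236 and a coefficient of variation of 6.57%. It ranged from 175 to 215 in miR-Ctrl BDL, or by -0.23 on the log2 scale (SE 0.11, adjusted p = 0.125).

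In transsulfuration, Cbs (Entrez gene 12411, chromosome 17, 31612623 to 31637233) condenses homocysteine with serine to cystathionine. It had 418, 510, 326, 313 and 513 normalized counts in no BDL and 242, 249, 326 and 254 in miR-Ctrl BDL. Mouse 3 was the only BDL mouse above the lowest untreated mouse. This gave a log2 fold change of -0.64 (SE 0.19, adjusted p = 0.0257), and it passed the threshold in 5 of the 9 fits that left out 1 mouse but not in those without no BDL mouse 2 or miR-Ctrl BDL mouse 1, 2 or 4. Cth (Entrez gene 107869, chromosome 3, 157894248 to 157925081) splits cystathionine to cysteine. It had 251, 320, 275, 162 and 252 normalized counts in no BDL and 163, 260, 256 and 181 in miR-Ctrl BDL. The groups overlapped over nearly their whole ranges, with a log2 fold change of -0.23 (SE 0.21, adjusted p = 0.435).

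The promoters of the 3 genes that fell are shown as the windows from 250 bases before to 50 bases after the transcript start of a promoter table drawn from RefSeq (GRCm38.p6). This start is the gene end given above for Ahcy and lies 46 bases inside it for Gnmt and 28 bases inside it for Cbs. The CCAAT box, the GC box (GGGCGG) and the TATA box (TATAAA) were searched on both strands, and matches are in capitals.
Gnmt (chr17:46729116-46729415, minus strand): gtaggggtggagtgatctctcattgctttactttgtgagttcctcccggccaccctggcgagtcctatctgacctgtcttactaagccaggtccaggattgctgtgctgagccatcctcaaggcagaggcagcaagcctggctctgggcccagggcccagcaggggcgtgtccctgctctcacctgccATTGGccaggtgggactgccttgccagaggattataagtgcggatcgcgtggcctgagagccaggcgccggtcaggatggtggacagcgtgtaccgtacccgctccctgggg
Ahcy (chr2:155074448-155074747, minus strand): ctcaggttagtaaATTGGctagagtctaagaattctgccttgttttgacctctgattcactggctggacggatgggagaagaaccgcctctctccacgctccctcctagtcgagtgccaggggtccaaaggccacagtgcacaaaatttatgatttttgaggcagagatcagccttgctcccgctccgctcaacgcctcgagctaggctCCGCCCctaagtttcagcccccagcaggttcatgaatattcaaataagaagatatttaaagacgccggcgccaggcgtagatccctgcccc
Cbs (chr17:31637156-31637455, minus strand): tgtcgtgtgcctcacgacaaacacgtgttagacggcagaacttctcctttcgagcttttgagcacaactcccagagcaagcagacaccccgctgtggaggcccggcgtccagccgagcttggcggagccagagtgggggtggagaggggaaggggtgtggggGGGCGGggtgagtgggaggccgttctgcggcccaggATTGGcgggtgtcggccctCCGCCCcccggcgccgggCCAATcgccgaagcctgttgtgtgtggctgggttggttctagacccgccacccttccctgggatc
Each of the 3 windows held the CCAAT box. As printed, in the direction of the gene, it reads ATTGG, the reverse complement, in Gnmt and Ahcy and occurs in both forms in Cbs. The windows of Ahcy and Cbs also held the GC box GGGCGG, in Ahcy as CCGCCC and in Cbs in both forms. The table has 9 windows for 8 of the members, of which Pemt has 2, and those of Mat2b and Pemt start 2521 to 9556 bases inside the genes given above. CCAAT was found in 7 of the 9 windows and GGGCGG in 5, beside 37.4% and 35.7% of 32851 promoters. TATAAA was found in the window of Mat2a alone among the 9 and in 13.6% of all promoters. The window of Bhmt2 and 1 of those of Pemt, which did not pass the test, held no CCAAT, and no entry was found for Mat1a and Cth.

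The second comparison set anti-miR-873-5p BDL (n = 4) against the same 5 no BDL mice, so its values share their reference group with the first. None of the 10 genes passed the threshold, and 3 of them, Mat2a, Gnmt and Cbs, had an unadjusted p under 0.05. Of the 13130 genes tested, 13.1% were called higher, 8.44% lower, and 36.2% had an unadjusted p under 0.05. The log2 fold change was negative for 7 genes and positive for Mat1a, Mat2a and Cth, with a median of -0.11 beside -0.0070 over all genes. No member was separated between the groups, against 18.3% of all genes. Under scaling by library size alone the median of all genes was 0.82, the split of calls went from 1715 higher and 1108 lower to 10063 higher and 131 lower, and 7 of the 10 genes were called higher.

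With anti-miR-873-5p and BDL, Gnmt had 802, 1224, 486 and 260 normalized counts, against 1531, 1330, 1412, 1140 and 957 in no BDL as scaled in this table. Mouse 2 lay within the untreated range and the other mice below it. The log2 fold change was -0.88 (95% CI -1.75 to -0.01, unadjusted p = 0.0487, adjusted p = 0.135). Cbs had 305, 385, 287 and 219 normalized counts, against 319 to 524 in no BDL, and a log2 fold change of -0.50 (unadjusted p = 0.0466, adjusted p = 0.131). Mat2a had 70.5, 119, 103 and 89.2, against 63.2 to 91.7, and a log2 fold change of 0.40 (unadjusted p = 0.0475, adjusted p = 0.133).

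The largest spread was in Mat1a, with 1343, 10594, 1651 and 1703 normalized counts with anti-miR-873-5p against 1734 to 2680 in no BDL. Mouse 2 was far above all untreated mice and the other mice were below them, and the log2 fold change of 0.81 had a 95% CI of -0.51 to 2.13 (adjusted p = 0.358). Ahcy had 639, 3026, 663 and 586 normalized counts against 1118 to 2122, with the same mouse above and the others below the untreated range. Its log2 fold change was -0.37 (95% CI -1.49 to 0.74, adjusted p = 0.633). Cth had 245, 694, 274 and 135 against 166 to 326, and a log2 fold change of 0.39 (95% CI -0.52 to 1.30, adjusted p = 0.529). Pemt ranged from 149 to 300.1 against 210 to 261, a log2 fold change of -0.23 (adjusted p = 0.458). Bhmt (-0.08), Bhmt2 (-0.06) and Mat2b (-0.14) had the smallest log2 fold changes, with adjusted p-values of 0.860, 0.752 and 0.526.

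**Figure D2:**
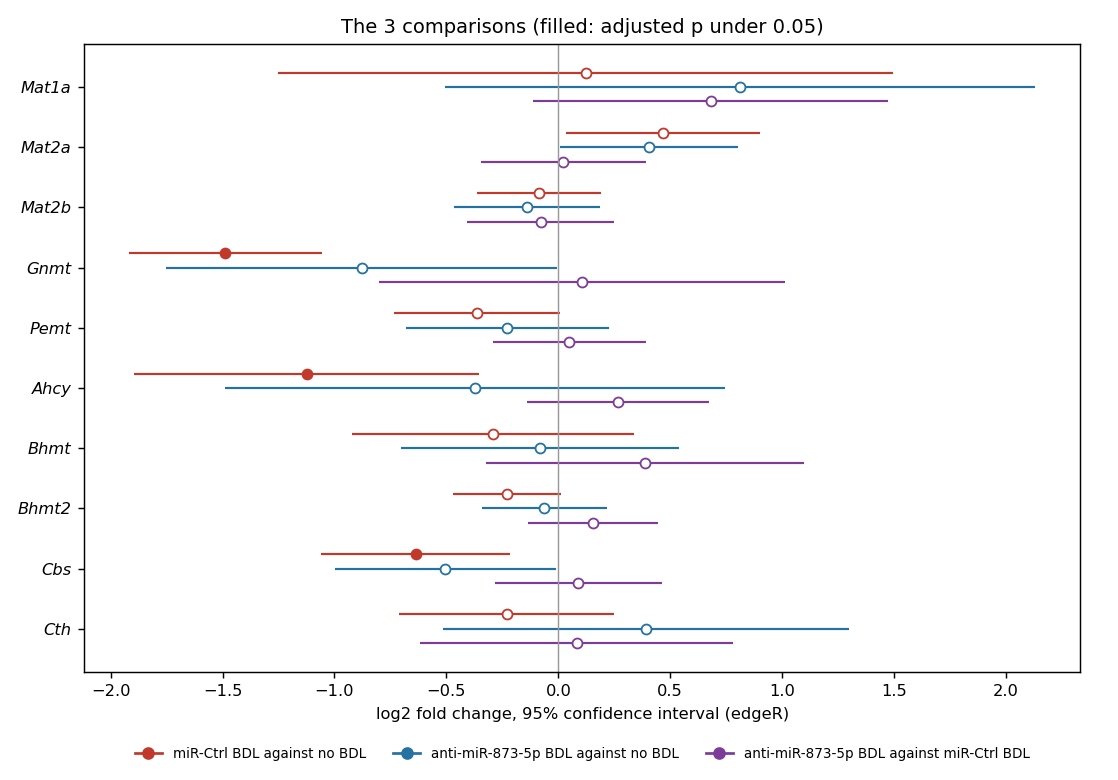
Log2 fold change (x axis) of the 10 genes (y axis) in the 3 comparisons, with 95% confidence intervals from edgeR and filled points at an adjusted p under 0.05. Gnmt, Ahcy and Cbs in miR-Ctrl BDL versus no BDL are filled, at -1.49, -1.12 and -0.64, and the intervals of Mat1a against no BDL span more than those of the other genes.

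The third comparison addressed whether the oligonucleotide changed these genes in cholestatic liver, in the deposited table of anti-miR-873-5p BDL (mice 1, 3 and 4) against miR-Ctrl BDL (mice 1, 2 and 4). None of the 10 genes passed the threshold and none had an unadjusted p under 0.05. Over all 13746 genes the adjusted test called 0%, and 6.28% had an unadjusted p under 0.05. DESeq2's Wald test called 29 genes (19 higher and 10 lower) and none of the 10. The log2 fold change was positive for 9 genes and negative for Mat2b, with a median of 0.10 beside 0.0057 over all genes. The groups overlapped for each of the 10 genes, whereas 11.4% of all genes were separated.

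Mat1a had the largest difference, with 1902, 2306 and 2388 normalized counts with the anti-miR-873-5p and 746, 1912 and 1460 in miR-Ctrl BDL. The lowest mouse of the first group was level with the highest of the second. The log2 difference was 0.68 (95% CI -0.11 to 1.47, unadjusted p = 0.0817, adjusted p = 0.781). Bhmt had 3993, 6363 and 4319 against 3450, 5003 and 2769, a log2 fold change of 0.39 (95% CI -0.32 to 1.10, adjusted p = 0.847). Ahcy had 906, 927 and 822 against 598, 842 and 765, a log2 fold change of 0.27 (95% CI -0.14 to 0.67, adjusted p = 0.811).

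Gnmt had 1136, 679 and 364 normalized counts with anti-miR-873-5p and 553, 727 and 748 with miR-Ctrl. One mouse of the first group lay above, another within and the other below the range of the second, and the ranges spanned 3.12-fold and 1.35-fold. The log2 difference was 0.10 (95% CI -0.80 to 1.01, unadjusted p = 0.794, adjusted p = 0.970). With all 4 mice of each group, including those the table leaves out, it was 0.62 (adjusted p = 0.981). That fit gave 0.77 for Ahcy, 0.64 for Cth and 0.72 for Mat1a, each with the same adjusted p. For Cth the interval was -0.62 to 0.78, for Cbs -0.28 to 0.46 and for Bhmt2 -0.13 to 0.45. For Pemt it was -0.29 to 0.39, for Mat2a -0.34 to 0.39 and for Mat2b -0.41 to 0.25. The intervals of Bhmt2, Pemt, Mat2a, Mat2b and Cbs lie within a log2 difference of 0.5 in either direction, and those of the other 5 genes do not.

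Both mice that the third table leaves out stood apart. The median correlation of log2 counts with the other mice of the group was 0.924 for miR-Ctrl BDL mouse 3 and 0.923 for anti-miR-873-5p BDL mouse 2, against 0.960 to 0.979 for the other 11 mice. The study's supplement says that outliers were filtered where there were any, and names none. In miR-Ctrl BDL mouse 3 was the highest of its group for 7 of the 10 genes and the lowest for Gnmt, where it was the highest for 36.8% and the lowest for 39.7% of all genes. In anti-miR-873-5p BDL mouse 2 was the highest for 8 of the 10 genes and for 34.6% of all genes.

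Relative to the mean of the other 3 mice of its group, Mat1a was 6.73 times as high in miR-Ctrl BDL mouse 3 and 6.77 times in anti-miR-873-5p BDL mouse 2. Ahcy was 2.61 and 4.81 times as high in these mice. Gnmt, in contrast, was 0.80 times the mean of the others in the first mouse and 2.37 times in the second. Cth was 1.27 and 3.18 times and Pemt 1.54 and 1.797 times as high. Mat2b was 1.03 and 1.07 times as high and Bhmt2 1.17 and 1.17 times. Mat1a alone took 0.764% of all counts in the first mouse and 1.31% in the second, against 0.074% to 0.266% in the other mice.

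Leaving out these mice changed several calls. Without miR-Ctrl BDL mouse 3, 6 of the 10 genes fell against no BDL, beside 20.1% of all genes called lower in that fit. These were Ahcy (log2 fold change -1.62, adjusted p = 0.000640), Gnmt (-1.43, adjusted p = 0.000623), Mat1a (-1.17, adjusted p = 0.0107), Cbs (-0.76, adjusted p = 0.0108), Pemt (-0.56, adjusted p = 0.00565) and Bhmt2 (-0.30, adjusted p = 0.0372). Without anti-miR-873-5p BDL mouse 2, 4 of the 10 fell, beside 13.4% of all genes, namely Ahcy (-1.35, adjusted p = 0.00313), Gnmt (-1.32, adjusted p = 0.0196), Cbs (-0.66, adjusted p = 0.0443) and Pemt (-0.50, adjusted p = 0.0161). Mat1a was then at -0.49 (adjusted p = 0.0943) and Cth at -0.25 (adjusted p = 0.502), both with the sign turned. The median of the 10 log2 fold changes went from -0.26 to -0.50 in the first comparison and from -0.11 to -0.37 in the second. Leaving out any one of no BDL mouse 2 and miR-Ctrl BDL mice 1, 2 and 4 left Gnmt as the only member called in the first comparison.

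**Figure D3:**
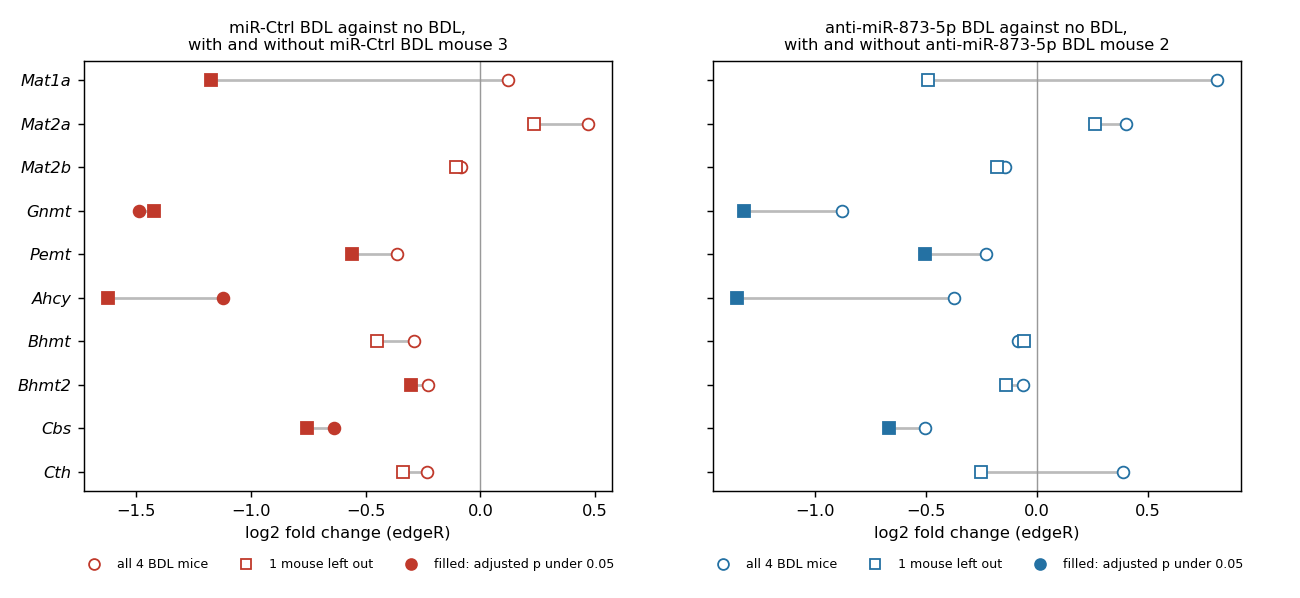
Log2 fold change against no BDL (x axis) of the 10 genes (y axis) with all 4 BDL mice (circles) and without 1 mouse (squares), in miR-Ctrl BDL without mouse 3 (left) and anti-miR-873-5p BDL without mouse 2 (right), filled at an adjusted p under 0.05. Mat1a moves from 0.12 to -1.17 and from 0.81 to -0.49, and 6 and 4 squares are filled.

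Ratios of gene pairs within a mouse do not depend on the scaling of its library, and 4 pairs were compared in the 3 comparisons by exact two-sided permutation tests, adjusted over the 12 tests. None passed the adjusted threshold. The tests of 3 against 3 mice could not pass it, because their smallest possible p is 0.1. The ratio of Gnmt to Pemt counts, both of which consume SAMe, was 5.88, 5.86, 5.66, 5.06 and 4.55 in no BDL. It was 2.74, 3.30, 1.54 and 2.89 in miR-Ctrl BDL and 4.50, 4.08, 2.80 and 1.74 in anti-miR-873-5p BDL. Every BDL mouse of both groups was below every untreated mouse, at a mean 0.469 and 0.572 times the untreated ratio. Both permutation p-values were 0.0159, the smallest that doubling the smaller tail can give with 5 against 4 mice, and the adjusted p was 0.0952.

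The ratio of Mat2a to Mat1a counts lay between 0.0273 and 0.0429 in no BDL. It was 0.176, 0.0646, 0.022 and 0.0768 in miR-Ctrl BDL and 0.0525, 0.0113, 0.0627 and 0.0524 in anti-miR-873-5p BDL. In both BDL groups 3 mice lay above and 1 mouse, the one that stood apart, below all untreated mice. The exact permutation p was 0.111 (adjusted p = 0.222) in the first comparison and 0.825 (adjusted p = 0.990) in the second. In the table of both BDL groups the 3 anti-miR-873-5p mice lay below the 3 miR-Ctrl mice, at 0.587 times the ratio, with a permutation p of 0.1, the smallest that 3 against 3 can give (adjusted p = 0.222). The ratio of Cth to Cbs was 0.491 to 0.844 in no BDL, 0.673 to 1.04 in miR-Ctrl BDL and 0.616 to 1.801 in anti-miR-873-5p BDL. Its exact permutation p against no BDL was 0.0952 (adjusted p = 0.222) for both groups. The ratio of Bhmt2 to Bhmt overlapped between all groups, with permutation p-values of 0.794, 1 and 0.4 in the 3 comparisons.

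**Figure D4:**
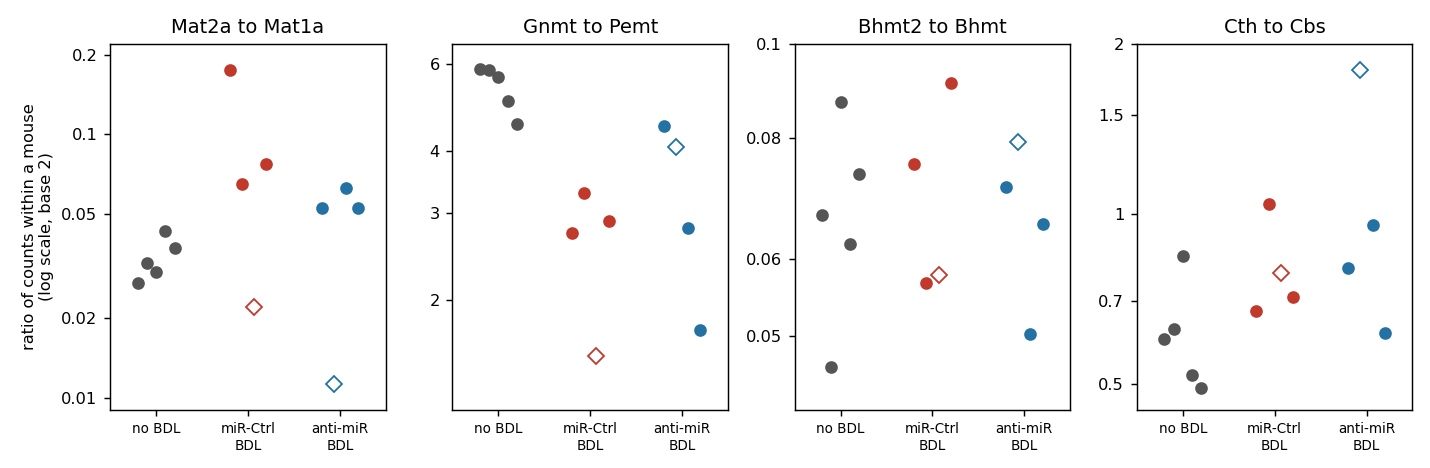
Ratio of the counts of 2 genes in each mouse (y axis, log scale) for 4 gene pairs, with 1 point per mouse by group and open diamonds for miR-Ctrl BDL mouse 3 and anti-miR-873-5p BDL mouse 2. The Gnmt to Pemt ratio is 4.55 or more in all untreated mice and 4.50 or less in all BDL mice, and both diamonds have the lowest Mat2a to Mat1a ratio of their groups.

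Other genes of the pathway were listed by step, 40 in all, of which 39 could be tested and Pnmt, which makes adrenaline, was listed at 0 reads. In miR-Ctrl BDL 4 rose and 16 fell against no BDL, beside 19.1% and 16.6% of all genes tested, and the median of the 39 log2 fold changes was -0.28. With the anti-miR-873-5p oligonucleotide 1 rose and 8 fell, beside 13.1% and 8.44% of all genes, and the median was -0.25. In anti-miR-873-5p BDL versus miR-Ctrl BDL none passed, 5 had an unadjusted p under 0.05, beside 6.28% of all genes, and the median was 0.013. Under library size alone the counts were 21 higher and 4 lower in the first comparison, beside 9360 and 275 of all 13072 genes. In the second they were 20 higher and 1 lower, beside 10063 and 131 of 13130 genes. Without the mouse that stood apart they were 5 higher and 17 lower in the first, beside 2999 and 2711 of 13509 genes. In the second they were then 1 higher and 10 lower, beside 2500 and 1817 of 13597 genes. DESeq2 called 12 lower in the second comparison, beside 1521 of 13130 genes. Leaving out anti-miR-873-5p BDL mouse 3 or 4 left 4 lower in each case, beside 357 of 13335 and 444 of 13296 genes.

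Genes that fell in miR-Ctrl BDL were spread over the steps. In the oxidation of choline and betaine, which supplies the substrate of Bhmt and breaks down its product, 4 of 5 genes fell, where 16.6% of all genes were called lower. Sardh, which oxidises the sarcosine made by GNMT, went from 586 to 973 normalized counts in no BDL to 227 to 307 in miR-Ctrl BDL, with -1.56 as the log2 fold change (SE 0.18, adjusted p = 0.000359). Pipox, a peroxisomal sarcosine and pipecolate oxidase, went from 186 to 248 down to 77.5 to 102, a log2 fold change of -1.21 (SE 0.13, adjusted p = 0.000214). With anti-miR-873-5p the log2 fold changes were -0.95 (adjusted p = 0.0120) and -0.90 (adjusted p = 0.0142). Neither gene passed the threshold between the BDL groups. The log2 difference was 0.53 for Sardh (95% CI 0.09 to 0.96, unadjusted p = 0.0240, adjusted p = 0.757) and 0.21 for Pipox (95% CI -0.38 to 0.81, unadjusted p = 0.423, adjusted p = 0.899), whose groups overlapped.

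Of the other methyltransferases, 4 of 7 tested fell in miR-Ctrl BDL, to be read against the same 16.6%. Inmt, which methylates tryptamine and related amines, had the largest change of the list, from 129 to 1035 normalized counts in no BDL to 0.75 to 8.8 in miR-Ctrl BDL (log2 fold change -6.35, SE 0.86, adjusted p = 0.000659). The range with anti-miR-873-5p was 2.2 to 84.8. Among the 10 genes of cysteine use and glutathione synthesis 2 rose and 3 fell, beside 19.1% and 16.6% of all genes. Mpst, which transfers sulfur from mercaptopyruvate, had 73.1 to 93.9 normalized counts in no BDL and 24.2 to 28.03 in miR-Ctrl BDL (log2 fold change -1.56, SE 0.11, adjusted p = 5.22e-05). Tst, the mitochondrial thiosulfate sulfurtransferase, fell by 1.13 on the log2 scale (adjusted p = 0.000108). Gss, glutathione synthetase, rose in contrast, from 35.1 to 59.4 normalized counts in no BDL to 89.8 to 129 in miR-Ctrl BDL (log2 fold change 1.16, adjusted p = 0.000898).

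Against the 19.1% of all genes called higher and 16.6% called lower in miR-Ctrl BDL, 1 of the 6 genes of methionine synthase and folate rose and 3 fell, and of the 9 genes of methionine salvage and polyamines 1 rose and 1 fell. One of the 2 SAH hydrolase-like genes fell. In anti-miR-873-5p BDL versus no BDL the lowest adjusted p-values were those of Gss, which rose (log2 fold change 0.90, adjusted p = 0.00539), and of Shmt1 (-1.18, adjusted p = 0.0108), Mpst (-0.94, adjusted p = 0.0115), Sardh, Pipox and Tst (-0.71, adjusted p = 0.0162), which fell. Shmt1 is the cytosolic serine hydroxymethyltransferase, which feeds 1-carbon units to folate, and had 113 to 173 normalized counts in no BDL and 49.8 to 107 in anti-miR-873-5p BDL.

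**Figure D5:**
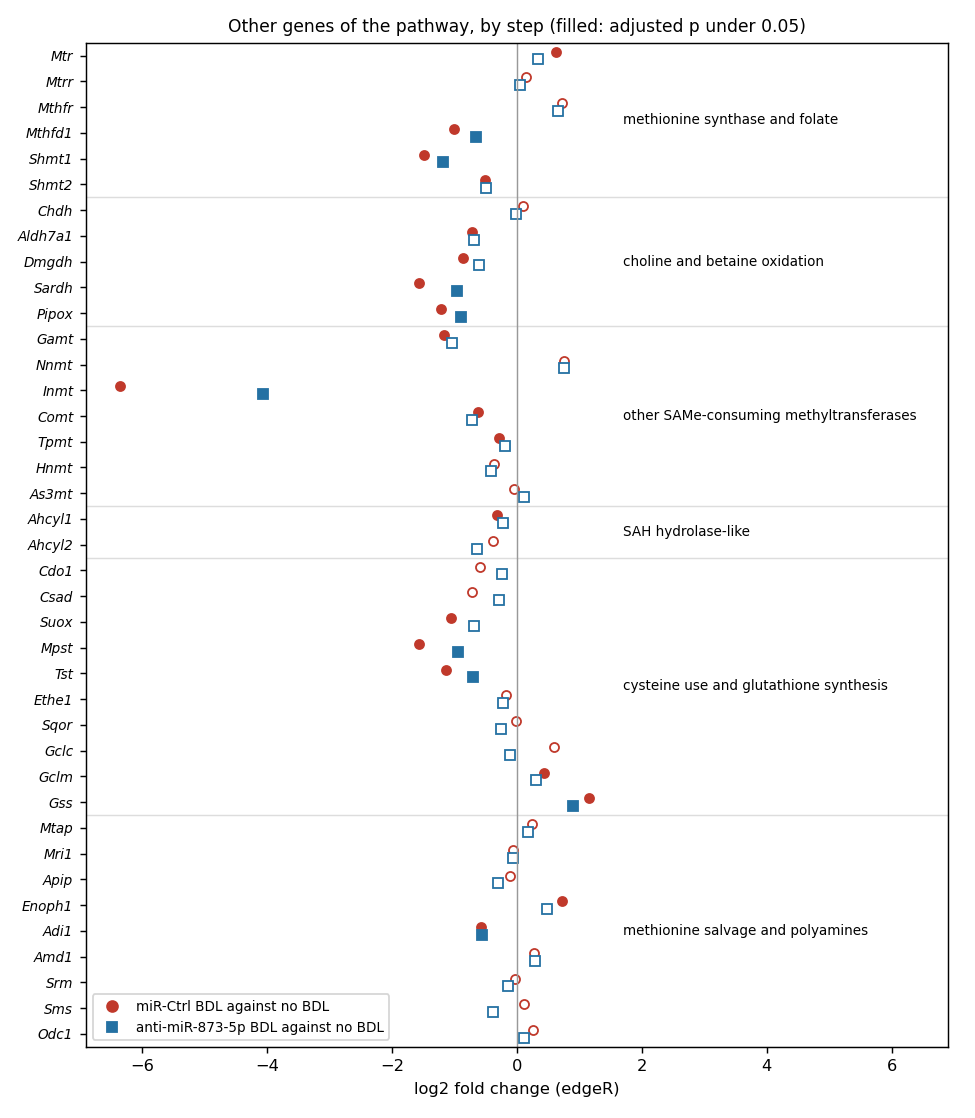
Log2 fold change against no BDL (x axis) of the 39 other genes of the pathway (y axis, by step) in miR-Ctrl BDL (circles) and anti-miR-873-5p BDL (squares), filled at an adjusted p under 0.05. Inmt lies farthest to the left at -6.35, Gss is filled on the right in both comparisons, and Sardh, Pipox, Mpst and Tst are filled on the left in both.

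Markers of liver cell types also differed between BDL and no BDL. In miR-Ctrl BDL 19.1% of all genes were called higher and 16.6% lower, and the marker counts are to be read beside these shares. All 6 cholangiocyte markers rose in miR-Ctrl BDL, where their summed normalized counts were 397 to 1460 against 38.0 to 111 in no BDL, and so did 5 of 6 macrophage and leukocyte markers (168 to 495 against 58.3 to 273) and 4 of 6 stellate cell and fibroblast markers (120 to 429 against 41.2 to 77.9). None of 4 endothelial markers passed. Of 10 hepatocyte markers, Apoa1, Apoa2 and Ttr fell and the transferrin gene rose, and their sum was 79716 to 108029 against 111758 to 121734, with no defining marker at 0. In anti-miR-873-5p BDL all 6 cholangiocyte markers rose (194 to 1437 against 38.8 to 113), as did 3 of 6 stellate cell and fibroblast markers (70.6 to 536 against 42.03 to 79.4) and 1 of 6 macrophage and leukocyte markers (129 to 492 against 59.4 to 278). Of 4 endothelial markers Kdr fell, and of 10 hepatocyte markers Apoa2 and Ttr fell, with a sum of 74192 to 115272 against 113944 to 124267. In the table of both BDL groups none of the 32 markers passed the threshold, and none had an unadjusted p under 0.05, beside 0% and 6.28% of all genes. In whole liver, fewer hepatocytes and less RNA per hepatocyte cannot be told apart, and the part of cell makeup in the values of the 10 genes was not tested.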

How the data were processed

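Liver RNA of 13 mice was extracted with TRIZOL, and the authors used the TruSeq RNA v2 kit and single-read sequencing. Reads were mapped by TopHat (mm10), and what the authors deposited are raw counts for each Entrez gene in 3 tables, 1 for each comparison. The submitters' processing notes also name CASAVA 1.8.2, FastQC, Trim Galore and DESeq2, and the counting program and its annotation are not given in the sources used here. All columns of values were used, and 0 were left out. Groups were taken from the sample labels, and each sample is a separate mouse.

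The tools were edgeR 4.0.16 and DESeq2 1.42.0 in R 4.3.3. After filterByExpr and TMM scaling, the quasi-likelihood test of edgeR was fitted on all genes kept of each table, with the Benjamini-Hochberg threshold at 0.05. The SE of a fold change is its absolute log2 value over the root of F. Normalized counts came from edgeR's cpm function. Ratios of counts had a pseudocount of 0.5, and their two-sided permutation p is double the smaller tail. The edgeR test was also run on simulated data in which 200 genes differed by 2 on the log2 scale. It recovered 94.5% of them in miR-Ctrl BDL versus no BDL (12911 genes) and 88.5% in anti-miR-873-5p BDL versus no BDL (13005 genes). In the table of both BDL groups it recovered 92.0% (13611 genes). False calls made up 2.58%, 4.32% and 2.13% of the calls, in the same order. The simulated difference was larger than the log2 fold change of any member. The recovery therefore does not show how often differences as small as those of the members would be found. Depth was 12185333 to 19689037 counts per mouse.

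Gene positions are those of RefSeq on GRCm38, and exon lengths, shared windows and untranslated regions those of GENCODE M21. The members, lists and tests were chosen with earlier results of these data known. The genes named are the 10 members and, of the other pathway genes, the 6 with the lowest adjusted p in each comparison against no BDL. Alternatives were library size alone, DESeq2's size factors, the Wald test of DESeq2, keeping every gene with 1 count or more, a mean of at least 10 counts, all 13 mice in 1 fit, all 4 mice of each BDL group, mouse number as a block and leaving out each mouse. A permutation p by absolute difference was chosen after seeing the data.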

Additional observations from a re-analysis of the deposited data

Results flagged for a closer look

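Dixon's test of single mice was applied to the 10 genes and 4 ratios in the 3 groups, 42 tests in all, and chance flags about 1 in 20. It found 4 values far from the other mice of the group. In miR-Ctrl BDL these were both in mouse 3, which had 6366 normalized counts of Mat1a, against 511 to 1323 in the other mice, and 326 of Cbs, against 242 to 254. In anti-miR-873-5p BDL they were both in mouse 2, which had 10594 normalized counts of Mat1a, against 1343 to 1703 in the other mice, and 3026 of Ahcy, against 586 to 663. These are the mice that have no column in the table of both BDL groups.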

How the results depend on the processing

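Limits: the values rest on 3 to 5 mice per group, and reads of Ahcy may come from its near-identical copies. The edgeR p-values set a difference between groups against the variation between mice. The permutation p-values set it against rearrangements of the group labels. With the smaller tail doubled, the ratios could not reach a p under 0.0159 with 4 against 5 mice or under 0.1 with 3 against 3. Gnmt in miR-Ctrl BDL versus no BDL kept its direction and its call in every alternative run, from library size alone to leaving out each mouse.

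Library size alone called 9635 genes in miR-Ctrl BDL versus no BDL and 10194 in anti-miR-873-5p BDL versus no BDL. Among the 10 members it called 5 (4 higher and 1 lower) and 7 (7 higher). It gave the tested genes a log2 median of 0.79 in the first comparison, 0.82 in the second and 0.047 in the third. It turned the log2 fold change to positive for Mat2b (0.69 and 0.65), Pemt (0.41 and 0.56), Bhmt (0.54 and 0.78), Bhmt2 (0.57 and 0.76) and Cbs (0.17 and 0.32) in the first and second comparison, for Cth in the first (0.56) and for Ahcy in the second (0.35). With all 13 mice in 1 fit, from which Mat1a and Cbs were absent because their counts differ between tables, 1 member was called in the first comparison (Ahcy adjusted p = 0.110). DESeq2's Wald test called 29 genes between the BDL groups. In that comparison Mat2a was at -0.067 with all 13 mice and -0.063 with all 4 mice of each group, where Gnmt was at 0.62, Ahcy at 0.77 and Cth at 0.64, and where the ratios of Cth to Cbs (0.28) and Gnmt to Pemt (0.29) also turned. With the p by absolute difference, chosen after seeing the data, the Gnmt to Pemt ratio passed the threshold at log2 differences of -1.09 and -0.81 against no BDL (adjusted p = 0.0476 for both). The cause of these changes was not tested.

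The samples were treated as unpaired. Correlations of deviations between mice of the same number ran from -0.089 to 0.036 in the first comparison and from -0.20 to 0.074 in the second. In the third, with 2 pairs, they were 0.35 and -0.016. These few pairs cannot show whether the numbers mark a pairing. With the mouse number as a replicate block, 4063 genes were called in the first comparison, 2195 in the second and 0 in the third. The block turned Mat1a in the first comparison (-0.64), Mat2a in the third (-0.10) and the ratios of Bhmt2 to Bhmt in the second (0.036) and Cth to Cbs in the third (0.023), and Cbs in the first had an adjusted p of 0.098.

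Leaving out 1 mouse gave 3775 to 5710 called genes in the first comparison, 1261 to 4317 in the second (without mouse 3 or mouse 2 of anti-miR-873-5p BDL, respectively) and 0 to 1 in the third. The called members numbered 1 to 6, 0 to 4 and 0. Log2 fold changes whose sign turned ran from -1.17 to 0.45 for Mat1a in the first comparison and in the second from -0.49 to 1.09 for Mat1a, from -0.25 to 0.65 for Cth and from -0.26 to 0.087 for Bhmt. In the third they ran from -0.38 to 0.42 for Gnmt, -0.030 to 0.15 for Pemt, -0.11 to 0.33 for Cth, -0.11 to 0.15 for Mat2a, -0.014 to 0.22 for Cbs and -0.20 to 0.048 for Mat2b. The log2 ratio of Mat2a to Mat1a ran from -0.078 to 0.75 in the second comparison, that of Bhmt2 to Bhmt from -0.070 to 0.17 in the first and -0.13 to 0.12 in the second, and in the third that of Cth to Cbs from -0.17 to 0.17 and Gnmt to Pemt from -0.43 to 0.26.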
